A study of Mus musculus with 6 samples.

Results

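Genes of the lipid droplet surface were examined in mouse aorta with and without Trail, the death ligand encoded by Tnfsf10. The set held 10 genes: the CIDE genes Cidea, Cideb and Cidec, the perilipin genes Plin1, Plin2, Plin3, Plin4 and Plin5, and the lipase genes Pnpla2 and Lipe. The genes were listed by name, and each was read from the probe set that carries its symbol alone. Each gene had 1 such probe set, so 10 of 23410 annotated probe sets, or 10 of 19938 singly named genes, are described. The 6 samples were labelled as aorta of C57Bl6/J mice aged 6 weeks, 3 Trail knockout (Trail-/-, from mice supplied by Amgen) and 3 Wildtype. The comparison asked what loss of TRAIL does to the aorta overall. Values are log2 signals of one-colour arrays, so a step of 1 is a 2-fold change. Signals of different probe sets are not comparable, and only differences between arrays are compared here. Whether the 3 samples of a genotype came from 3 animals or from pools is not stated, so the p-values cover the scatter among these arrays, which may be technical. No backcross or litter is given for the knockout mice.

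The array titled Wildtype 1 stood apart from the other 5 and is shown separately throughout. Its Pearson r with them, across annotated probe sets, was 0.899 to 0.907, whereas every other array had an r of at least 0.980 with some other array. Tnfsf10 gave 8.42 on Wildtype 1, 4.90 and 4.85 on Wildtype 2 and Wildtype 3, and 4.09 to 5.02 on the arrays labelled knockout. It therefore did not separate the arrays labelled Wildtype 2 and 3 from the knockout arrays, and directions follow the labels. The 10 smooth muscle markers, which any muscular wall expresses, had medians of 9.31 to 11.09 on the 6 arrays, with Actg2 at 8.03 on Wildtype 1 and 10.67 to 11.39 elsewhere. The markers do not show 1 shared tissue make-up behind the label aorta. Skeletal muscle markers had a median of 5.71 on Wildtype 1 and 10.62 to 11.44 elsewhere. Squamous epithelium markers had a median of 4.89 there and 10.49 to 10.73 elsewhere. Stomach markers reached a median of 12.42 on Trail knockout 2 against 4.81 to 6.79 elsewhere, and lung markers 8.36 on Trail knockout 1 against 5.27 to 5.70.

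Fat cells store triglyceride in droplets whose surface is coated by proteins. Perilipins cover the droplet and control the access of lipases, and CIDE proteins help small droplets to fuse or pass lipid to larger ones. Pnpla2 encodes adipose triglyceride lipase, which takes the first fatty acid from triglyceride, and Lipe encodes hormone-sensitive lipase, which takes the next. White fat cells keep 1 large droplet with perilipin 1 and Cidec, while brown fat cells keep many small ones and also make Cidea and the uncoupling protein Ucp1. Fat surrounds the aorta, and that of the thoracic aorta in mice is largely brown.

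The start regions of 5 members are shown because 2 of them, Cidec and Plin1, varied together between arrays, and because Plin3, Plin4 and Plin5 lie on the same chromosome but differed in how far they moved. Windows run from 250 bases before to 50 after the start of transcription, 5′ to 3′ on the gene's strand, from RefSeq on GRCm38.p6. Capitals mark matches to the short motifs searched.
Cidec, chr6:113434715-113435014, minus strand: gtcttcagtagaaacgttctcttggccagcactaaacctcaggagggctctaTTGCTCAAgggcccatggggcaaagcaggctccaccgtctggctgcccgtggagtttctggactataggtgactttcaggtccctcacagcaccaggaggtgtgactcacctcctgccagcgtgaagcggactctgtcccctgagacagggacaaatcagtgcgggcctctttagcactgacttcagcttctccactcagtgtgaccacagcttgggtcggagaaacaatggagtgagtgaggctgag
Plin1, chr7:79732727-79733026, minus strand: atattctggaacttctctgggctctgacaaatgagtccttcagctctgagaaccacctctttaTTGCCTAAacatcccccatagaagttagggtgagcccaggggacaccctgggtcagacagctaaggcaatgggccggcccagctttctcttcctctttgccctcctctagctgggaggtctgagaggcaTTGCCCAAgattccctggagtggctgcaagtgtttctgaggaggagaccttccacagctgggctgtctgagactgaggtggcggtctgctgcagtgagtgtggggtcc
Plin5, chr17:56117499-56117798, minus strand: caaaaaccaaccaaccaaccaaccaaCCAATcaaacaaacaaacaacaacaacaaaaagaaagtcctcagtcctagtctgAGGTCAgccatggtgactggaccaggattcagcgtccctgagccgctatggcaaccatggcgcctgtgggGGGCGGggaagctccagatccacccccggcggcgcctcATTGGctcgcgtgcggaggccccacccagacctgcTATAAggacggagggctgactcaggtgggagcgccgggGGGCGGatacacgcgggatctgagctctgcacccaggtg
Plin4, chr17:56109733-56110032, minus strand: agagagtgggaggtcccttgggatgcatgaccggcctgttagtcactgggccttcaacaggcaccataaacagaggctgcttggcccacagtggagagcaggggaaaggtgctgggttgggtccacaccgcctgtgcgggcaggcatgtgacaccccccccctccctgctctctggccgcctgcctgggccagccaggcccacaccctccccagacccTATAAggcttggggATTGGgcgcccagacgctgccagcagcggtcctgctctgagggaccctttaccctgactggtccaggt
Plin3, chr17:56290462-56290761, minus strand: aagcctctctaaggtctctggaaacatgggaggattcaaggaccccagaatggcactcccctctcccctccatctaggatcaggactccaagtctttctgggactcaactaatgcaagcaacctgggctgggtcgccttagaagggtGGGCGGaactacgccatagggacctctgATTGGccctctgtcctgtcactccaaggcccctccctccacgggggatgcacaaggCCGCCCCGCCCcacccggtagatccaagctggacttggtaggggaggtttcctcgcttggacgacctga

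Windows were read for 9 of the 10 members, 12 windows in all, since Cidec, Plin5 and Lipe each have 2 annotated starts. Chromosome 18, which holds Cidea, was left out, also from the shares over all windows. For Cidec and Plin5 the window with more motif matches is shown. Motifs are counted per window. Motifs were sought on both strands and may overlap. The C/EBP-type motif TTGCNNAA lay in windows of 2 genes, Cidec (at position -198 from the start shown, with no match in its other window) and Plin1 (at -187 and -58), or 2 of 12 windows, and in 10.8% of all 32851 windows of this length. The TATA core TATAA lay at position -32 of Plin4 and -27 of Plin5, and also in the Cideb window (3 of 12 windows, and 24.9% of all windows). The other Plin5 window held neither TATAA nor CCAAT. The CCAAT box CCAAT was found in 4 of 12 windows, those of Plin2, Plin3 and Plin4 and the Plin5 window shown (37.4% of all windows), and the GC box GGGCGG in 7 of 12 (35.7%). The nuclear receptor motif AGGTCA was found in 3 of 12, that of Plin2 and both of Plin5 (16.3%), and the E-box CACGTG in 2 of 12, that of Plin2 and 1 of Lipe (7.15%). The direct repeat of AGGTCA with a spacing of 1 base (0.0396% of all windows) and the short cyclic AMP response motif TGACG (20.8%) were found in 0 of 12. In the same assembly Plin4 and Plin5 are immediate neighbours, with Plin3 on the same chromosome, and Plin1, Pnpla2 and Lipe share another. Cideb overlaps Ltb4r2 and Nop9 there, and whether its probes also read them is not known.

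All 10 members were highest on the array Wildtype 1, and 7 of them exceeded each of the other 5 arrays more than 2-fold. The share of all annotated probe sets more than 2-fold above each other array on Wildtype 1 was 4.6%. The share that was merely highest there was not counted, so the 10 of 10 has no background beside it. These are values of 1 array, so no test applies. The genes are taken in turn below by family.

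Among the CIDE genes, Cidea, the member typical of brown fat, stood farthest apart. It gave 7.12, 6.65 and 6.85 on Trail knockout 1, 2 and 3, 11.88 on Wildtype 1, and 6.78 and 6.72 on Wildtype 2 and 3. The Wildtype 1 value was 27.1-fold above the highest of the other arrays, which lay within 0.47 of each other. Cidec, which promotes large droplets in white fat, gave 8.28, 7.59 and 6.77 on the knockout arrays, 10.91 on Wildtype 1, and 6.10 and 6.73 on Wildtype 2 and 3. Its Wildtype 1 value was 6.22-fold above the next array, Trail knockout 1, and the other 5 arrays spread over 2.18, the widest range of the set. Cideb, known from liver and gut, gave 5.40, 6.29 and 5.10 on the knockout arrays, 6.75 on Wildtype 1, and 5.11 and 5.44 on Wildtype 2 and 3. Wildtype 1 and Trail knockout 2 were both high for Cideb, only 1.38-fold apart. On Trail knockout 2 the stomach markers were also high, as were Apoa1 with 11.62 against 5.66 to 6.20 elsewhere and Apob with 8.09 against 4.36 to 4.66, both apolipoprotein genes of liver and gut. Their part in the Cideb value was not tested.

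The perilipins differed widely in their distance. Plin1, the perilipin of fat cells and gatekeeper of hormone-driven lipolysis, gave 7.70, 7.18 and 6.51 on the knockout arrays, 11.03 on Wildtype 1, and 6.06 and 6.61 on Wildtype 2 and 3. Wildtype 1 was 10.1-fold above the next array. Plin5, the perilipin of tissues with high fatty acid oxidation, gave 5.99, 5.71 and 5.78 on the knockout arrays, 8.53 on Wildtype 1, and 5.73 and 5.98 on Wildtype 2 and 3. That was 5.80-fold above the next array, with the other 5 arrays inside a range of 0.28. Plin2, a perilipin of most cells that hold droplets, including macrophages, gave 9.68, 9.03 and 9.43 on the knockout arrays, 11.66 on Wildtype 1, and 9.45 and 9.50 on Wildtype 2 and 3. It was 3.95-fold above the next array on Wildtype 1. Macrophage markers had medians of 7.42 to 7.88 on those 5 arrays and 8.05 on Wildtype 1, with 9 of 12 highest on Wildtype 1 and 0 of 12 more than 2-fold above the other arrays.

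The remaining perilipins moved least. Plin4, which coats nascent droplets in white fat and muscle, gave 7.80, 7.44 and 7.62 on the knockout arrays, 8.70 on Wildtype 1, and 7.59 and 7.89 on Wildtype 2 and 3. Wildtype 1 was 1.76-fold above the next array, just short of 2-fold. Plin3, a perilipin found in nearly all cells, gave 8.90, 8.74 and 8.80 on the knockout arrays, 9.19 on Wildtype 1, and 8.81 and 8.77 on Wildtype 2 and 3. Its distance on Wildtype 1, 1.22-fold, was the smallest of the 10, as was its range of 0.16 over the other arrays. The neighbours Plin4 and Plin5 thus lay 1.04 and 2.69 above their means of the other 5 arrays on Wildtype 1, and Plin3 0.38.

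Both lipases were high on the same array. Pnpla2 gave 8.38, 8.29 and 7.83 on the knockout arrays, 11.13 on Wildtype 1, and 7.80 and 8.05 on Wildtype 2 and 3. Lipe gave 8.38, 7.93 and 7.73 on the knockout arrays, 11.17 on Wildtype 1, and 7.54 and 7.80 on Wildtype 2 and 3. Wildtype 1 was 6.75-fold above the next array for Pnpla2 and 6.92-fold for Lipe, so the pair stood at a like distance. Set against the mean of the other 5 arrays, the 10 members lay between 0.38 (Plin3) and 5.06 (Cidea) higher on Wildtype 1, with a median of 2.88.

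**Figure D1:**
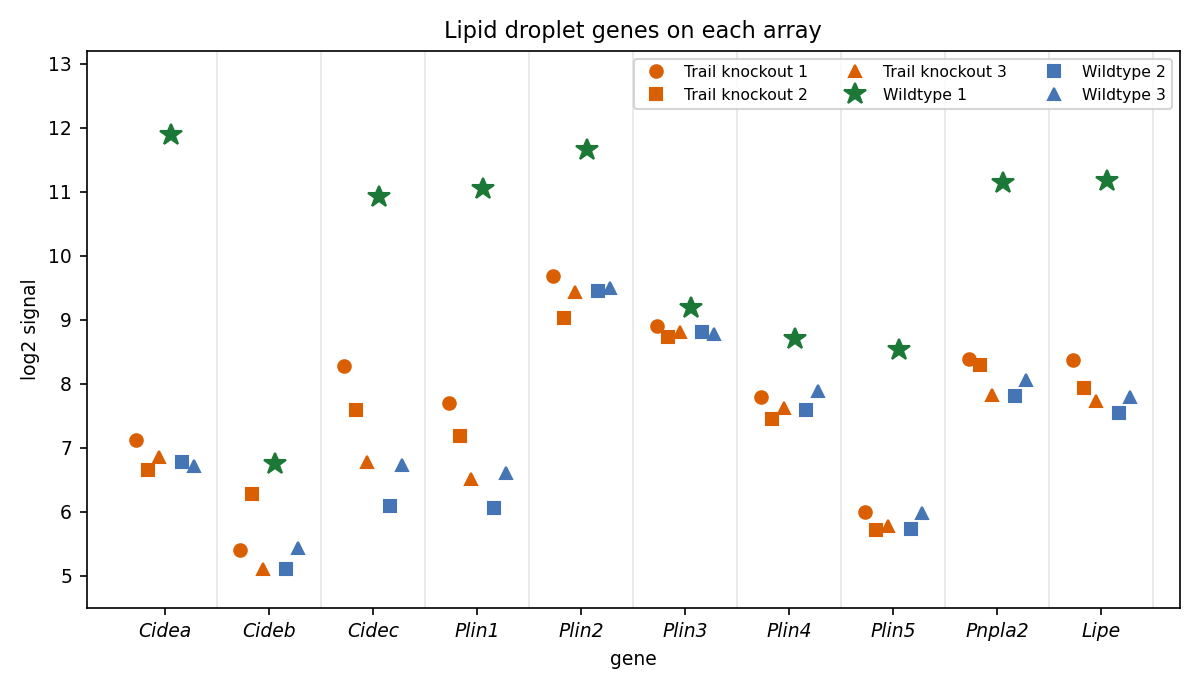
Log2 signal (vertical axis) of the 10 genes (horizontal axis), 1 point per array: orange for Trail knockout, blue for Wildtype 2 and 3, a green star for Wildtype 1. The star is the highest point for every gene, farthest from the rest for Cidea and nearest for Plin3.

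**Figure D2:**
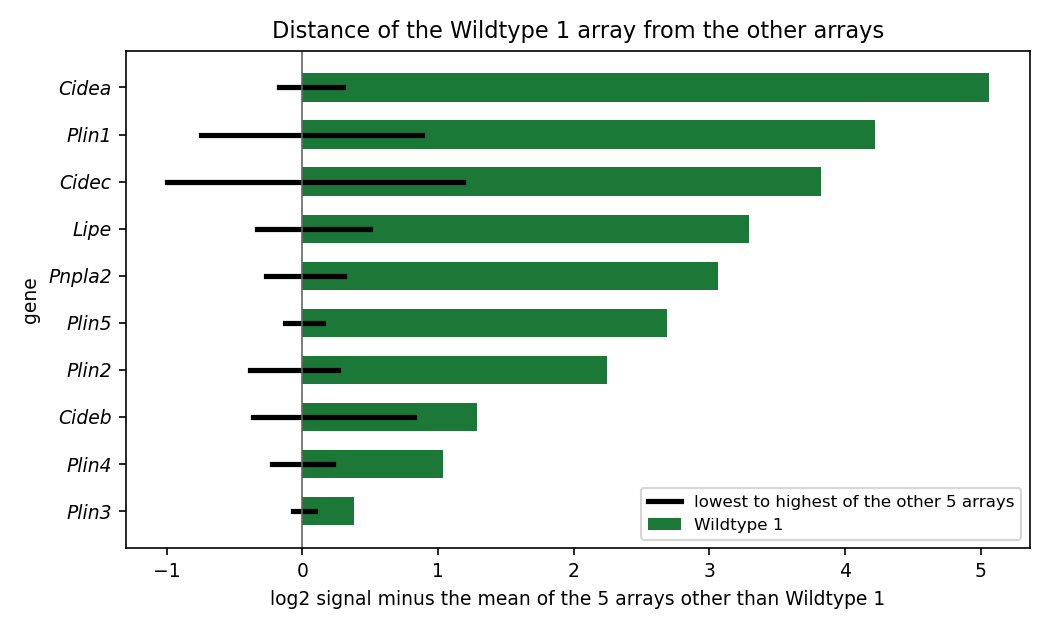
Log2 signal on Wildtype 1 minus the mean of the other 5 arrays (green bars) for each gene, with black lines from the lowest to the highest of those 5 arrays. Bars run from 5.06 for Cidea to 0.38 for Plin3, and each ends beyond its black line.

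Fat markers were high on the same array, and in bulk samples fewer cells of a type and less RNA per cell cannot be told apart. Of 14 brown fat markers found (of 15 listed), 10 were more than 2-fold above each other array on Wildtype 1. The 1 marker below each other array there was Zic1, with 5.45 against 5.79 to 6.49. Ucp1, the defining brown fat gene, gave 12.32 there and 4.32 to 4.59 elsewhere. The log2 of the summed brown fat signals was 14.29 on Wildtype 1, 11.75 and 11.86 on Wildtype 2 and 3, and 11.28 to 11.85 on the knockout arrays. On the arrays other than Wildtype 1 most of this sum came from Cox8b (9.37 to 10.60) and Cox7a1 (9.58 to 10.28). It therefore says little there about the remaining brown fat markers. Of 13 white and shared fat markers found (of 15 listed), 9 were more than 2-fold above each other array, among them Pck1 with 11.94 against 5.95 to 7.59. Another 2 were below each other array. The summed level of the 13 markers was 14.17 on Wildtype 1, 10.61 and 10.94 on Wildtype 2 and 3, and 10.86 to 11.69 on the knockout arrays. Endothelial markers were higher on Wildtype 1 as well, and heart muscle markers were mixed. All 10 endothelial markers were highest there, 4 of them more than 2-fold above each other array, among them Kdr with 10.09 against 7.59 to 8.55. Of 10 heart muscle markers, 4 were more than 2-fold above each other array. Myh6 gave 9.64 against 5.25 to 5.45, and Myl7 9.54 against 6.36 to 6.70. Another 3 were below each other array, among them Myl3 with 6.19 against 11.23 to 11.90 and Actc1 with 11.36 against 12.30 to 12.81. The log2 of the summed heart muscle signals was 12.53 on Wildtype 1 and 13.04 to 13.51 elsewhere. On the arrays other than Wildtype 1 most of this sum came from Actc1 and Myl3, so its fall says little about the remaining heart muscle markers. The part of fat, endothelial or heart muscle content in the members' values was not tested.

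On the 5 arrays other than Wildtype 1, the members split in their behaviour. Cidec, Plin1 and Cideb ranged over more than 1 (2.18, 1.63 and 1.19), and the other 7 over 0.16 to 0.83. Cidec and Plin1 shared 1 order of arrays at its top and bottom: Trail knockout 1 was highest, Trail knockout 2 next, and Wildtype 2 lowest. For Cidec, these 3 arrays lay 1.18 above, 0.50 above and -0.996 from the mean of the 5, and for Plin1 0.88, 0.37 and -0.75. Lipe and Pnpla2 took a smaller version of that order, from 0.50 and 0.31 on Trail knockout 1 to -0.33 and -0.27 on Wildtype 2. The median of the white fat list followed it too, with 0.59 and 0.34 on Trail knockout 1 and 2 and -0.37 on Wildtype 2.

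Cidea shared only the top of that order, Trail knockout 1. It lay 0.30 above the mean of the 5 arrays on Trail knockout 1, where Cidec lay 1.18 above, and -0.17 from it on Trail knockout 2, where Cidec lay 0.50 above. The median of the brown fat list, each marker set against its own mean, stayed within -0.07 to 0.10 on these arrays. Single markers of the list ranged over 0.26 (Ucp1) to 1.23 (Cox8b). Of the brown fat markers 3 of 14, and of the white fat markers 3 of 13, were higher on all knockout arrays than on Wildtype 2 and 3. In neither list was any lower in this way (0 and 0). The shares of annotated probe sets were 6.98% higher and 6.72% lower. Ucp1 did not exceed 4.59, a dim signal at which a small range says little. Plin2, Plin4 and Plin5 were lowest on Trail knockout 2, with -0.39, -0.22 and -0.13, where Cidec and Plin1 were second highest. These are contrasts of single arrays and carry no test. Trail knockout 1 held the highest of the 5 values for 8 members, and Trail knockout 2 the lowest for 5. The shares of all probe sets that did so were not counted, so these counts are not read as a trait of the members. Trail knockout 1 also had the highest median of these arrays over all annotated probe sets, 6.47 against 6.39 to 6.43.

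**Figure D3:**
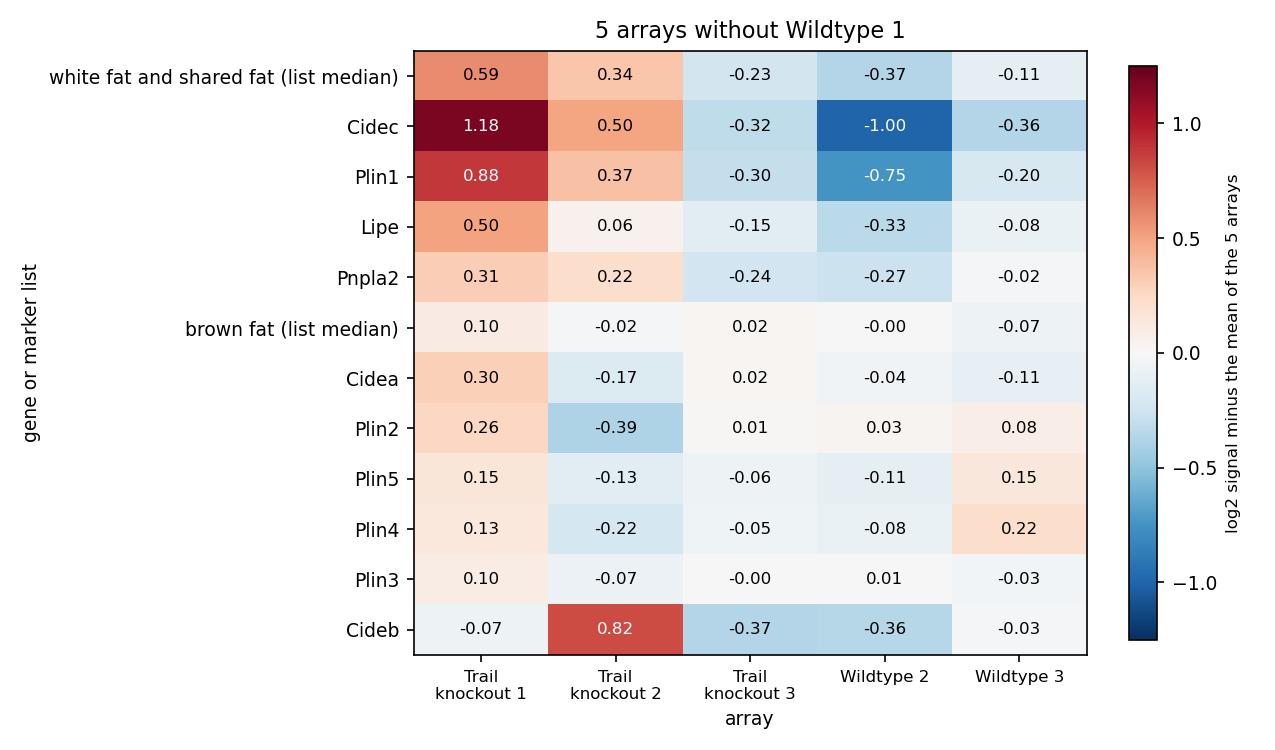
Log2 signal minus the mean of the 5 arrays (colour and printed value) for the 10 genes and for the medians of 2 fat marker lists (rows) on each array other than Wildtype 1 (columns). Cidec and Plin1 run from high on Trail knockout 1 to low on Wildtype 2 like the white fat list. Cidea is also highest on Trail knockout 1 (0.30) but lowest on Trail knockout 2 (-0.17). The brown fat list stays within -0.07 to 0.10, and Cideb peaks on Trail knockout 2.

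No member passed the test between genotypes. In limma, 0 of 10 members and 0% of 14046 probe sets tested passed at an adjusted p under 0.05 on 6 arrays, and 89 probe sets, none of them a member, had an unadjusted p under 0.05. An unmoderated test also passed 0, with 184 under 0.05 before adjustment. The filter on dim probe sets kept those with a mean of at least 5.86 and passed 9 of the 10 members. Cideb did not pass and was read from a fit without the filter, and Plin5 passed only through Wildtype 1, since its mean over the other arrays was 5.84. All 10 differences, knockout minus wild type, were below 0 on 6 arrays, as were 56.5% of those over all probe sets tested. The median of the members was -0.80 against -0.03 over all probe sets tested. Wildtype 1 is 1 of 3 wild-type arrays and the highest for each member. For 0 members did the groups fail to overlap, against 3.46% of annotated probe sets lower on all 3 knockout arrays.

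Without Wildtype 1, 7 of the 10 differences were above 0, against 41.6% of those over all probe sets tested. The median of the members was 0.18 against -0.03 over all probe sets tested. Again 0 of 10 members and 0% of 14046 probe sets passed in limma, with 217 under 0.05 before adjustment (unmoderated test: 0 and 264). Cidec was the member with the largest difference. Its mean was 7.55 ± 0.75 (SD, n = 3) in the knockout and 6.42 ± 0.45 (SD, n = 2) in the wild type without that array, against 7.91 ± 2.62 (SD, n = 3) with it. The difference was 1.13 (SE 0.42, 2.19-fold, 95% interval 0.12 to 2.14, limma unadjusted p = 0.033 and adjusted p = 0.997), and -0.37 (SE 1.31, adjusted p = 0.952) on all 6 arrays. The 3 knockout values were all above Wildtype 2 and 3, the only member of which this held, while 6.98% of annotated probe sets were higher and 6.72% lower without overlap in this way. Trail knockout 3, at 6.77, exceeded Wildtype 3, at 6.73, by far less than replicates differed. The white fat list was likewise highest on Trail knockout 1 and lowest on Wildtype 2, but its median was lower on Trail knockout 3 (-0.23) than on Wildtype 3 (-0.11), and its part in the Cidec difference was not tested.

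Plin1 had the next largest difference on those 5 arrays. Its mean was 7.13 ± 0.59 (SD, n = 3) in the knockout and 6.34 ± 0.39 (SD, n = 2) in Wildtype 2 and 3, a difference of 0.79 (SE 0.34, 95% interval -0.03 to 1.62, limma adjusted p = 0.997), and its groups overlapped. On 6 arrays it was -0.77 (SE 1.34, adjusted p = 0.922). Lipe and Pnpla2 turned in the same way, from -0.82 (SE 0.99) and -0.83 (SE 0.91) to 0.34 (SE 0.21) and 0.24 (SE 0.19). Cidea went from -1.59 (SE 1.43, 95% interval -5.11 to 1.94) to 0.12 (SE 0.16, 95% interval -0.25 to 0.50). Cideb went from -0.17 (SE 0.50) to 0.32 (SE 0.33), and to -0.025 when Trail knockout 2 was omitted as well.

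The perilipins other than Plin1 were close to 0 without Wildtype 1. Plin2 differed by -0.10 (SE 0.19, 95% interval -0.56 to 0.36), Plin3 by 0.02 (SE 0.11, 95% interval -0.25 to 0.29), Plin4 by -0.12 (SE 0.15, 95% interval -0.49 to 0.25) and Plin5 by -0.03 (SE 0.16, 95% interval -0.41 to 0.34). With it, the 4 differences were -0.82 (SE 0.63), -0.11 (SE 0.15), -0.44 (SE 0.30) and -0.92 (SE 0.75). Every member had a limma adjusted p of at least 0.921 on 6 arrays and 0.997 on 5, so no direction was established for any of them.

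**Figure D4:**
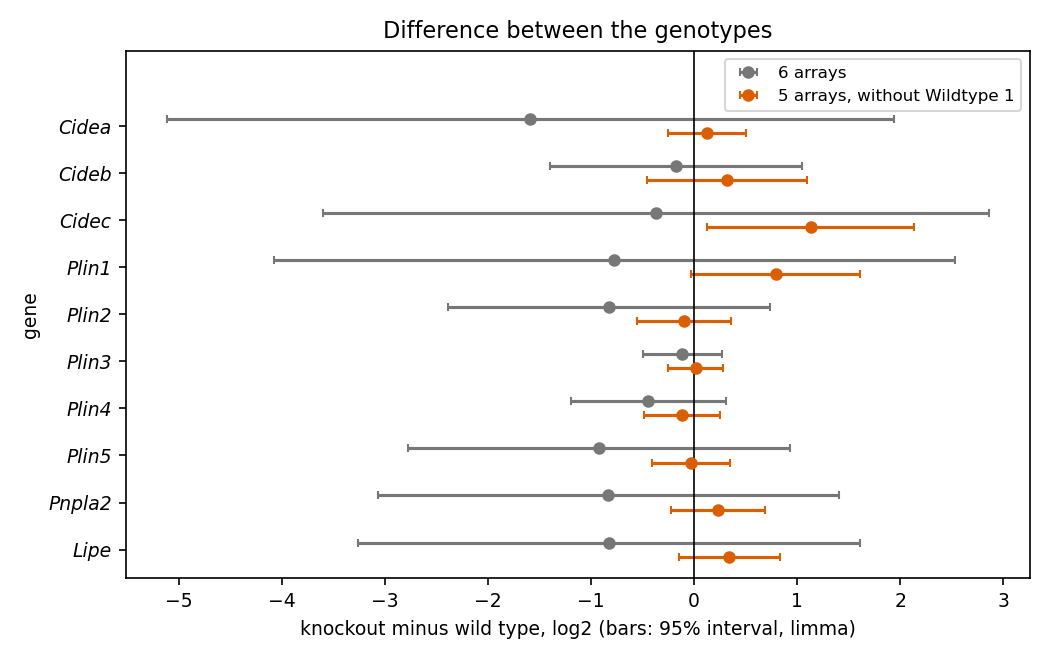
Difference in log2 signal, knockout less wild type (horizontal axis), with 95% intervals from limma for the 10 genes, on 6 arrays (grey) and on the 5 arrays without Wildtype 1 (orange). Grey points all lie below 0 with wide intervals, and of the orange intervals that of Cidec, 0.12 to 2.14, is the 1 that leaves out 0.

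Other genes of droplet metabolism were read by the same rule, and 0 passed the test in either direction on 6 or on 5 arrays in any of the 5 lists below. Among 13 cofactors and further lipases, 10 were more than 2-fold above each other array on Wildtype 1. Aqp7, the glycerol channel of fat cells, gave 10.66 there and 6.58 to 7.02 elsewhere. Pnpla3, a relative of Pnpla2 that is regulated by feeding, gave 10.08 against 6.25 to 6.60, and Angptl4, an inhibitor of lipoprotein lipase, 9.36 against 5.75 to 6.33. Fabp4, the fatty acid carrier of fat cells, gave 12.43 against 8.21 to 9.68. Its 3 knockout values, 9.68, 9.40 and 8.66, were above Wildtype 2 and 3 with 8.21 and 8.62 (difference 0.83, SE 0.30, limma adjusted p = 0.997). Of the 13 genes, 5 were higher without overlap in this way, Fabp4, Pnpla3 and Angptl4 among them, and 0 lower. The lists below had fewer: 3 of 14 for triglyceride synthesis, 2 of 16 for droplet formation, 1 of 13 for hormonal control and 1 of 16 for regulators. Lower without overlap were 2 of 16 regulators, and 0 in the other lists. The shares of annotated probe sets were 6.98% and 6.72%. The list's median difference was -0.59 on 6 arrays and 0.19 on 5. Abhd5, the activator of Pnpla2, gave 9.46 on Wildtype 1 and 8.85 to 9.18 elsewhere, a smaller distance than that of the lipase itself (0.28 against 2.76 above the next array). Abhd5 was chosen after its values were seen.

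Triglyceride synthesis showed 7 of 14 genes more than 2-fold above each other array on Wildtype 1 and 2 of 14 more than 2-fold below. Gpd1, which makes glycerol 3-phosphate, gave 12.62 against 8.33 to 8.74 elsewhere. Agpat2 and Dgat1, an acyltransferase of phosphatidic acid synthesis and 1 of the enzymes that complete triglyceride, gave 11.66 against 7.23 to 8.29 and 10.51 against 6.80 to 7.85. Mogat1, a monoacylglycerol acyltransferase, had another pattern: 9.26 on Trail knockout 2, 7.24 on Wildtype 1 and 4.30 to 5.06 elsewhere. The stomach markers were also highest on Trail knockout 2, and their part in the Mogat1 value was not tested. The median difference of the list was -0.33 on 6 arrays and 0.06 on 5.

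Droplet formation genes moved less, with 4 of 16 more than 2-fold above each other array on Wildtype 1 and 1 of 16 below. Bscl2, the seipin gene needed for droplet budding, gave 9.88 against 8.31 to 8.60. Mettl7a1, a droplet-associated methyltransferase-like gene, gave 10.91 against 8.81 to 9.57, and the caveolin gene Cav2 gave 9.06 against 7.10 to 8.01. Fitm1, a fat storage-inducing protein of skeletal muscle, went the other way with 5.99 on Wildtype 1 and 8.38 to 9.69 elsewhere. Skeletal muscle markers were lower there as well (15 of 16 more than 2-fold below each other array), and their part was not tested. The median difference was -0.14 on 6 arrays and 0.05 on 5.

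Genes of the hormonal control of lipolysis and of its transcription followed the coat genes on Wildtype 1 in part. Of 13 signalling genes, 6 were more than 2-fold above each other array, led by Prkar2b, a regulatory subunit of protein kinase A, with 11.65 against 6.50 to 7.57. Pde3b, the phosphodiesterase through which insulin restrains lipolysis, gave 10.14 against 5.86 to 7.52. Adcy3, an adenylyl cyclase, gave 8.82 against 6.45 to 6.72, and the prostaglandin receptor gene Ptger3 9.16 against 6.55 to 7.27. Of 16 regulators, 8 were more than 2-fold above, among them Pparg, the master regulator of fat cells, with 11.13 against 6.71 to 8.32, and Cebpa with 10.20 against 7.82 to 8.01. Irf4 gave 8.74 against 5.17 to 5.44, and the carbohydrate-response factor Mlxipl 9.24 against 6.62 to 6.99. The median differences were -0.34 and -0.44 on 6 arrays and 0.11 and 0.01 on 5.

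Genes with the most similar profiles were sought among the 12038 singly named genes that passed the filter on mean signal over 6 arrays, as those with the smallest root mean square difference of log2 profiles centred on their own mean over the 6 arrays. For Cidec these were Adipoq, the adiponectin gene, at 0.16 and Fabp4 at 0.24, and Plin1 was the nearest member at 0.23. For Plin1 they were Mrap, a melanocortin receptor accessory protein of adrenal gland and fat, at 0.15, and Orm1 at 0.17. Plin5 lay nearest to G0s2, the inhibitor of Pnpla2, at 0.083, and to Dhdh at 0.086. Plin2 lay nearest to Slc25a20, the carnitine carrier of mitochondria, at 0.10 and to Acaa2, a thiolase of fatty acid oxidation, at 0.11. The nearest to Lipe were Mme (0.077) and Proca1 (0.13), and the nearest to Pnpla2 were Paqr9 (0.059) and Nppa (0.093). Each lipase was the other's nearest member, at 0.14. Mrap, Paqr9 and Nppa passed the filter only through Wildtype 1, with means of 5.69, 5.80 and 5.44 on the other arrays.

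Cidea lay nearest to the chemokine gene Cxcl9 at 0.18 and to Gm12250 at 0.26, with Plin1 as its nearest member at 0.55. Cxcl9 gave 10.17 on Wildtype 1 and 5.02 to 5.23 elsewhere. Both passed the filter only through Wildtype 1, with means of 5.12 and 5.30 on the other arrays, and genes with a like profile that did not pass, such as the brown fat marker Slc27a2 (9.77 against at most 4.97), were not searched. The nearest to Cideb were Septin9 (0.12) and Rflnb (0.14), to Plin4 Jam2 (0.055) and Mgp (0.063), and to Plin3 Rnf114 (0.018) and Mdfic (0.024). All these distances are set largely by the single value of Wildtype 1, so they describe 6 arrays and no more. On the 5 arrays without it, Cidec was nearest to Cdo1 and Adipoq (both 0.17) and Plin1 to Fabp4 (0.090) and Trf (0.095). Cideb was nearest to the keratin gene Krt79 (0.025), which gave 6.77 on Trail knockout 2 and 5.59 to 5.98 on the other 4. Of the other members, Cidea, Plin3, Plin4 and Plin5 ranged over less than 0.5 there, and a profile that varies little is near many genes.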

How the data were processed

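Total RNA of 6 samples labelled as aorta was hybridised to one-colour Affymetrix arrays after Trizol extraction, per the labels' protocols. The deposited values are log2 signals, 1 column per sample for 35399 probe sets; the base was read from their range, 1.55 to 13.96. MAS5 is named in the submitters' processing notes, with no role or version; the steps from scanner image to signal (background, summary, scaling) are not given in the sources used, and could change small differences of dim probe sets. The deposited log2 values entered every step unchanged. Groups and replicate numbers came from the sample titles.

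Gene names came from GEO's annotation of the platform (23410 probe sets listed, 21789 with 1 gene symbol, 1621 with several). Where a gene had several, the one with the highest mean over 6 arrays was used. Listed genes with no singly named probe set were not analysed here.

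The genotypes were tested with limma 3.58.1 under R 4.3.3 (moderated, with a trend on mean signal, Benjamini-Hochberg over all probe sets tested, threshold 0.05), after the lowest 40% of annotated probe sets by mean signal were left out. The members and lists were chosen with earlier results of these data known. Named were all members, the 4 genes of each list with the largest gap between Wildtype 1 and its nearest array, and the 2 genes most alike to each member. The code was tested on simulated data. The alternatives were other scalings, filters, forms of the test, a replicate block, and leaving out arrays.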

Additional observations from a re-analysis of the deposited data

How the results depend on the processing

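The count of changed members and pathway genes was 0 in all 23 alternatives, and that of probe sets in each that gave one (the mean over a gene's probe sets gives none), with 27 to 1114 probe sets under an unadjusted p of 0.05 in limma or the unmoderated test. The lowest adjusted p of a member was 0.883 where all arrays were kept and 0.612 where arrays were left out. In the 12 alternatives that kept all arrays, 113 of 120 member differences kept their direction. The exceptions came with array weights, which gave Wildtype 1 a weight of 0.0977 in a fit that stopped before its convergence tolerance was reached: Cidea 0.15, Cideb 0.21, Cidec 1.08, Plin1 0.72, Plin3 0.056, Pnpla2 0.17 and Lipe 0.32, and medians of 0.16 for the members, 0.19 for lipolysis cofactors, 0.10 for triglyceride synthesis, 0.042 for droplet formation and 0.12 for hormonal control. A fit with the replicate block changed no call (0 probe sets changed, 73 under an unadjusted p of 0.05). Deviations of same-numbered arrays from their group means correlated at 0.0946, -0.231 and 0.198. These values cannot decide whether the numbers pair the samples, since Wildtype 1 stood far from the other arrays of its group.

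Leaving out 1 array, or Wildtype 1 and 1 more, gave these lowest and highest differences: Cidea -2.46 to 0.24, Cideb -0.52 to 0.57, Cidec -1.28 to 1.52, Plin1 -1.69 to 1.10, Plin2 -1.20 to 0.077, Plin3 -0.19 to 0.058, Plin4 -0.68 to 0.033, Plin5 -1.43 to 0.10, Pnpla2 -1.43 to 0.41 and Lipe -1.47 to 0.48. The medians ran from -1.35 to 0.27 for the members, -1.04 to 0.25 for lipolysis cofactors, -0.58 to 0.16 for triglyceride synthesis, -0.23 to 0.11 for droplet formation, -0.61 to 0.19 for hormonal control and -0.70 to 0.015 for regulators. All the lowest values include Wildtype 1. Where 1 wild-type array was left, it was assumed to vary like the others. The number of arrays limits the precision of each value.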

Other observations

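Single genes of the white fat and cofactor lists above, picked after their values were seen, were read on the 5 arrays without Wildtype 1. Retn, the resistin gene of white fat, gave 8.91, 8.47 and 7.03 on the knockout arrays and 6.66 and 6.96 on Wildtype 2 and 3, a difference of 1.33 (SE 0.51, limma adjusted p = 0.997). Adipoq gave 9.23, 8.38 and 7.45 against 6.54 and 7.46, a difference of 1.36 (SE 0.51, adjusted p = 0.997). Both were highest on Trail knockout 1 and lowest on Wildtype 2, as Cidec and Plin1 were. Both belong to the white fat list already described. Adipoq was also found as 1 of the 2 genes most alike to Cidec on these arrays, so its order adds no separate evidence. Slc2a4, the insulin-responsive glucose transporter gene shared by fat and muscle, gave 8.99, 8.84 and 9.02 against 8.98 and 9.18 and did not show that order. Hilpda, an inhibitor of Pnpla2 induced by low oxygen, gave 5.82 on Wildtype 1, inside the 5.49 to 6.27 of the other arrays, whereas the other Pnpla2 inhibitor G0s2 gave 9.93 there and 7.13 to 7.30 elsewhere.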
